A study of Mus musculus with 10 samples.

Results

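Srebp2 binding was mapped by ChIP-seq in WT and *Qk*-/- oligodendrocytes, and the 77 peaks called in WT cells were set against the 28 peaks called in *Qk*-/- cells, 105 of the 53186 peaks in the 6 lists of the series. Every row of both lists was used. The WT lists of Srebp2 and Qki-5 used here are shorter than those the study describes, so they do not stand for all sites bound, and sites outside them were not analysed here. A WT peak was counted as kept when a *Qk*-/- peak overlapped it by at least 1 bp and as lost when none did, and a *Qk*-/- peak without such an overlap was counted as knockout-only. Both cultures were neural stem cells (NSCs) of an FvB/C57BL6 hybrid strain, at passage 8, differentiated into oligodendrocytes in medium with the thyroid hormone T3. The NSCs came from pups with floxed *Qk* and a Nestin-driven, tamoxifen-inducible Cre, and *Qk* was deleted in culture with 4-hydroxytamoxifen, before differentiation. The *Qk*-/- cells thus lost all Qki isoforms, not Qki-5 alone, and whether the WT cells carried the floxed alleles or the Cre is not given in the labels. There was 1 Srebp2 library for each genotype, each with its own input library, so no test was made between genotypes, and the intervals below are exact 95% intervals that cover counting error only.

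Srebp2, encoded by *Srebf2*, is the transcription factor that turns on genes of cholesterol synthesis and uptake. It is held in the endoplasmic reticulum membrane with Scap and Insig proteins while sterols are plentiful, and is cut and sent to the nucleus when they run short. There it binds sterol regulatory elements (SREs) in promoters, usually beside CCAAT boxes bound by NF-Y and GC boxes bound by Sp1. Oligodendrocytes need large amounts of cholesterol for myelin and make most of it themselves. Qki is an RNA-binding protein required for myelination, and Qki-5 is its nuclear isoform. The comparison addresses whether Srebp2 still sits at its promoters when Qki is absent.

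Promoter sequence at the peaks is shown first, because the elements they carry are counted below for kept, lost and knockout-only peaks. Each sequence is 81 bases of mm10 (GRCm38), read 5′ to 3′ on the strand of the named gene, around the WT summit for kept and lost peaks and around the *Qk*-/- summit for *Cyp51* and the knockout-only peaks. For *Ralgapb* and *Patl1* the summit is not in the middle of the window. All windows end upstream of the nearest transcription start site (TSS) of the gene. Capitals mark CCAAT, the GC box GGGCGG and the SRE letters TCACNCCAC with up to 1 differing base, on either strand. Kept peaks are represented by *Srebf2*, *Hmgcs1*, *Sqle*, *Insig1* and *Cyp51*, lost peaks by *Fdps*, *Acss2* and *Pank3*, and knockout-only peaks by *Ralgapb* and *Patl1*.
Srebf2, kept, chr15:82147068-82147148, plus strand: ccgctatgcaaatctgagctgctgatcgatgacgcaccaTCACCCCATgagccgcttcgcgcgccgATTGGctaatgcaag
Hmgcs1, kept, chr13:119690037-119690117, plus strand: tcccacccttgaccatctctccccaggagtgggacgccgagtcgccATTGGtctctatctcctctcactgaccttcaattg
Sqle, kept, chr15:59314936-59315016, plus strand: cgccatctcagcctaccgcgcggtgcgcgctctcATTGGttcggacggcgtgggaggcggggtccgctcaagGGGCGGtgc
Insig1, kept, chr5:28071157-28071237, plus strand: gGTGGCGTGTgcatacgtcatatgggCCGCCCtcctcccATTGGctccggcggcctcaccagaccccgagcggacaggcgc
Cyp51, kept, chr5:4104751-4104831, minus strand: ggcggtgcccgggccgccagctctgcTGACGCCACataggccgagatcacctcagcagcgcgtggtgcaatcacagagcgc
Fdps, lost, chr3:89102093-89102173, minus strand: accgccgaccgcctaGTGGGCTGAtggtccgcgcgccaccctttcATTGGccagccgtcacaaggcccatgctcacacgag
Acss2, lost, chr2:155517731-155517811, plus strand: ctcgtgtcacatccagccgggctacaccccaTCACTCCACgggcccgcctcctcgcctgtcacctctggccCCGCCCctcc
Pank3, lost, chr11:35769343-35769423, plus strand: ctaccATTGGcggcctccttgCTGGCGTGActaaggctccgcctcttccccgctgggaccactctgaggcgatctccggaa
Ralgapb, knockout-only, chr2:158409767-158409847, plus strand: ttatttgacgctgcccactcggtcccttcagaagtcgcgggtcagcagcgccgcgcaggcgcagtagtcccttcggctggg
Patl1, knockout-only, chr19:11912318-11912398, plus strand: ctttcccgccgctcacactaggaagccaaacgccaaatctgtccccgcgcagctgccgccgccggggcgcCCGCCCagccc

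The Srebp2 list of *Qk*-/- cells was shorter than that of WT cells, and most of it lay inside WT peaks. Of 77 WT peaks, 18 were kept, which is 23.4% (14.5 to 34.4%), and 59 were lost. Of 28 *Qk*-/- peaks, 19 overlapped a WT peak (67.9%, 47.6 to 84.1%) and 9 were knockout-only. The lists of the other antibodies were shorter in *Qk*-/- cells as well. There, 33.8% of 32280 WT Pol II peaks were overlapped by any of the 12835 *Qk*-/- Pol II peaks, and 4.06% of 7539 WT Qki-5 peaks by any of the 427 *Qk*-/- Qki-5 peaks, the antigen of the latter antibody being the deleted protein. Those libraries came from passage 7 and had other inputs.

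The shorter Srebp2 list came from the deeper library. The lists hold no read totals, but fold enrichment and p-value at a summit are both functions of the fragments counted there, and inverting the peak caller's formula gave a whole fragment count for all 105 summits. It put the WT library at 15.1 M (mega, as in Mb) fragments and the *Qk*-/- library at 20.3 M, 1.34 times as many, with inputs of 11.8 M and 13.2 M fragments. These totals are reconstructed, not read from the files. They take the narrowest peak of each list (108 bp in WT, 115 bp in *Qk*-/- cells) as the fragment length. That length was not checked against reads, and levels per M fragments depend on it. Counts divided by these totals correct for library size but not for the share of each library that was Srebp2-bound chromatin, and with 1 library for each genotype a weaker precipitation in *Qk*-/- cells cannot be told apart from less Srebp2 on the chromatin.

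The strongest WT peaks were kept. Fold enrichment is the pileup at the summit over the local input background of the list's own input. It was used to rank peaks within a list, and its values do not compare between lists. All 12 WT peaks with the highest fold were kept, whereas 2 of the 9 peaks ranked 13 to 20, 2 of the 20 ranked 21 to 40 and 2 of the 36 ranked below these were kept. The median WT rank was 9.5 for kept and 45 for lost peaks. *Msmo1*, which encodes the methylsterol monooxygenase of the late pathway, ranked 1 in both lists. Each over its own input, its peaks had 57.6-fold enrichment in WT and 23.9-fold in *Qk*-/- cells. *Hmgcs1*, whose product makes HMG-CoA early in the pathway, ranked 3 in both lists. *Srebf2* itself ranked 4 in WT and 2 in *Qk*-/- cells, and *Cyp51*, the gene for lanosterol demethylase, ranked 2 and 5. The order of the kept peaks was similar in both lists (Spearman's rho across peaks 0.81, n = 18 peaks, which share their libraries), with some peaks out of order. *Atf4*, which encodes a stress-induced transcription factor, ranked 11 in WT and 28, the last, in *Qk*-/- cells, and the peak in an intron of *Mogat1*, a monoacylglycerol acyltransferase gene, 10 and 22. Counted among the 18 kept peaks alone, these were ranks 11 and 18 for *Atf4* and 10 and 15 for *Mogat1*. In contrast, *Hsd17b7*, a sterol ketoreductase gene, was 16 of 18 in WT and 11 of 18 in *Qk*-/- cells. *Pip4p1*, a phosphoinositide phosphatase gene, was near the bottom of the kept peaks in both, at 18 and 16.

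**Figure D1:**
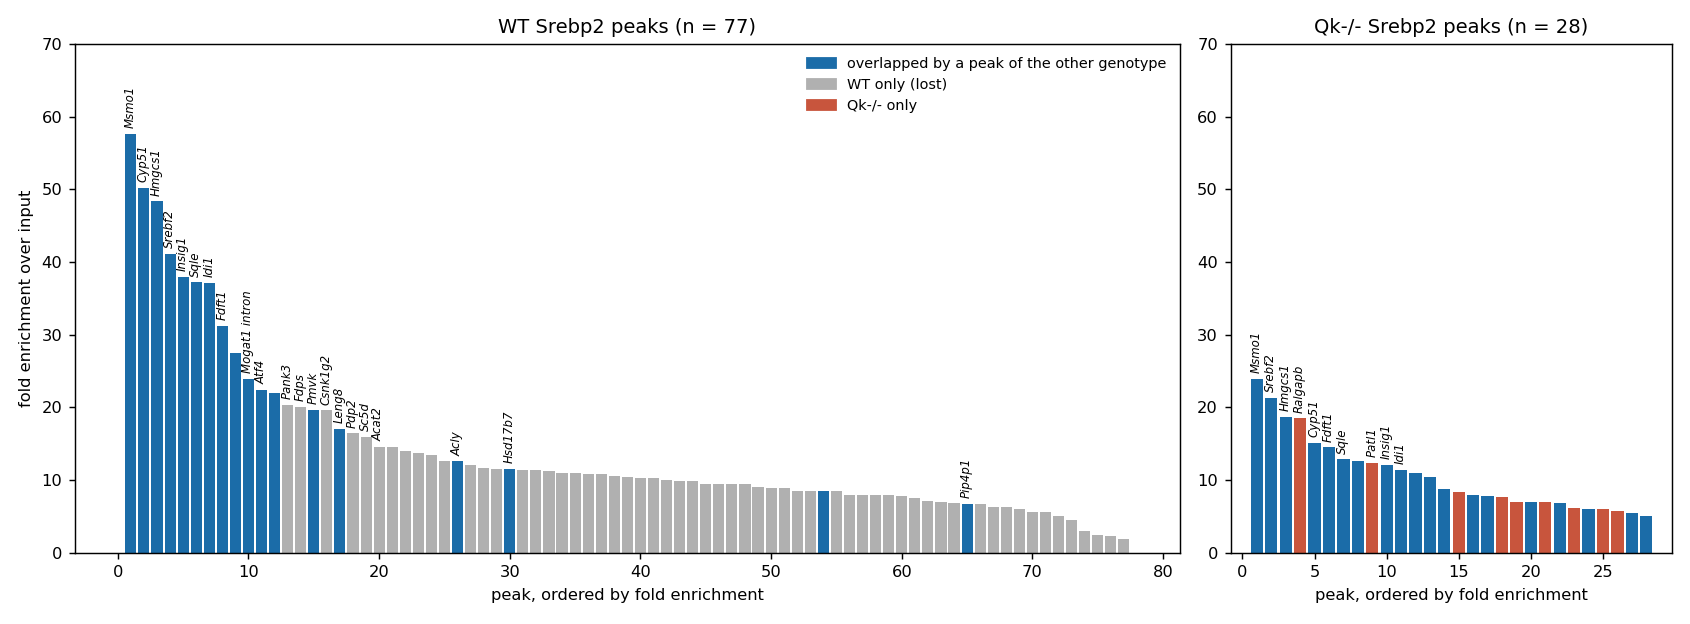
Fold enrichment over input (vertical axis) of each Srebp2 peak, ordered from the highest fold (horizontal axis), in WT (left, 77 peaks) and *Qk*-/- cells (right, 28 peaks). Bars are single peaks of 1 library for each genotype, with no error. Fold rests on each list's own input, so heights do not compare between the panels. The 12 strongest WT bars are all kept, and *Ralgapb*, at rank 4 and 18.5-fold, is the strongest *Qk*-/- bar without a WT peak.

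The signal at kept peaks was lower in *Qk*-/- cells. At *Msmo1*, 123 fragments covered the summit in WT and 65 in *Qk*-/- cells, which is 8.12 per M fragments (6.75 to 9.69) against 3.20 per M fragments (2.47 to 4.07), or 39.3% of WT (28.7 to 53.6%). *Srebf2* had 97 and 65 fragments, and its *Qk*-/- level was 49.9% of WT (35.9 to 69.0%). *Idi1*, the gene for isopentenyl-diphosphate isomerase, had 94 and 40 fragments and, at 31.7% (21.3 to 46.3%), the lowest share among the kept peaks. *Fdft1*, the gene for squalene synthase, had 66 and 49 fragments and the highest share among the 12 strongest WT peaks, 55.3% (37.4 to 81.2%). The median over these 12 was 41.2%. These 12 were ranked on WT values, and their number was set by where the first lost peak follows in that order. Of the 18 kept peaks, 17 had a share under 100% and 16 an interval that ended below it. The exceptions were the 2 weakest kept peaks, among them *Pip4p1* with 16 and 17 fragments (79.1%, 37.6 to 167%). No summit was called in *Qk*-/- cells with fewer than 17 fragments, so a WT peak as weak as this could be kept only with a high share. Summed over the 18 kept peaks, 1192 fragments in WT and 686 in *Qk*-/- cells gave a *Qk*-/- level, corrected for depth, of 42.8% of WT (39.0 to 47.1%).

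**Figure D2:**
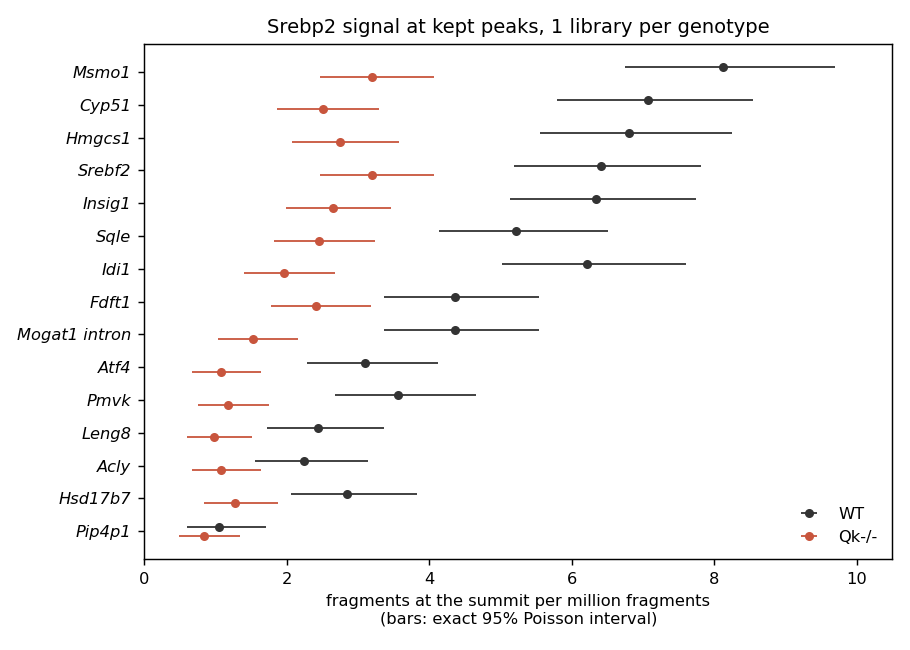
Fragments at the summit per M fragments of the library (horizontal axis) at 15 of the 18 kept peaks, ordered by WT fold enrichment from the top, in WT (dark) and *Qk*-/- cells (red). Points are 1 library for each genotype and bars are exact 95% Poisson intervals, which overlap at *Pip4p1* and narrowly at *Acly*.

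Kept peaks were narrower in *Qk*-/- cells, and each lay within its WT peak. All 19 *Qk*-/- peaks that overlapped a WT peak were contained in it. Over the 18 kept peaks the *Qk*-/- width was 15.2% to 65.4% of the WT width, with a median of 46.7% (where 2 *Qk*-/- peaks fell in 1 WT peak, the one with the nearer summit was taken). At *Insig1*, whose product holds Srebp proteins back in the endoplasmic reticulum, the WT peak spanned 1477 bp and the *Qk*-/- peak 284 bp. The promoter is shared with the noncoding gene *Gm26608*. *Atf4* had the lowest ratio, with 998 bp in WT and 152 bp in *Qk*-/- cells. The peaks of *Srebf2* spanned 1286 and 597 bp, and those of *Hmgcs1* 797 and 464 bp. Peak width follows the signal, since a peak extends as far as the enrichment passes the threshold, and width was not measured apart from the signal here. The WT list as a whole had a median width of 251 bp and a maximum of 1477 bp, and the *Qk*-/- list a median of 187 bp and a maximum of 597 bp.

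Summits shifted little between genotypes. The median distance between the WT and the *Qk*-/- summit was 37.5 bp, 11 of 18 lay within 50 bp and 16 within 100 bp. The summit of *Acly*, which encodes the ATP citrate lyase that supplies acetyl-CoA, was at the same base in both lists, and that of *Idi1* 1 bp apart. At *Msmo1* and *Hmgcs1* the summits lay 18 and 12 bp apart. The exceptions beyond 100 bp were *Cyp51*, at 316 bp, and *Pmvk*, the gene for phosphomevalonate kinase, at 174 bp. In WT cells the summit of *Cyp51* was 271 bp downstream of the TSS, in the 5′ untranslated region, whereas in *Qk*-/- cells it was 45 bp upstream, with the SRE-like letters centred 10 bp away that are capitalised in its sequence. The WT peak of *Cyp51*, 1222 bp wide, covered both positions. The *Pmvk* summit was 79 bp upstream of the TSS in WT and 253 bp upstream in *Qk*-/- cells.

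**Figure D3:**
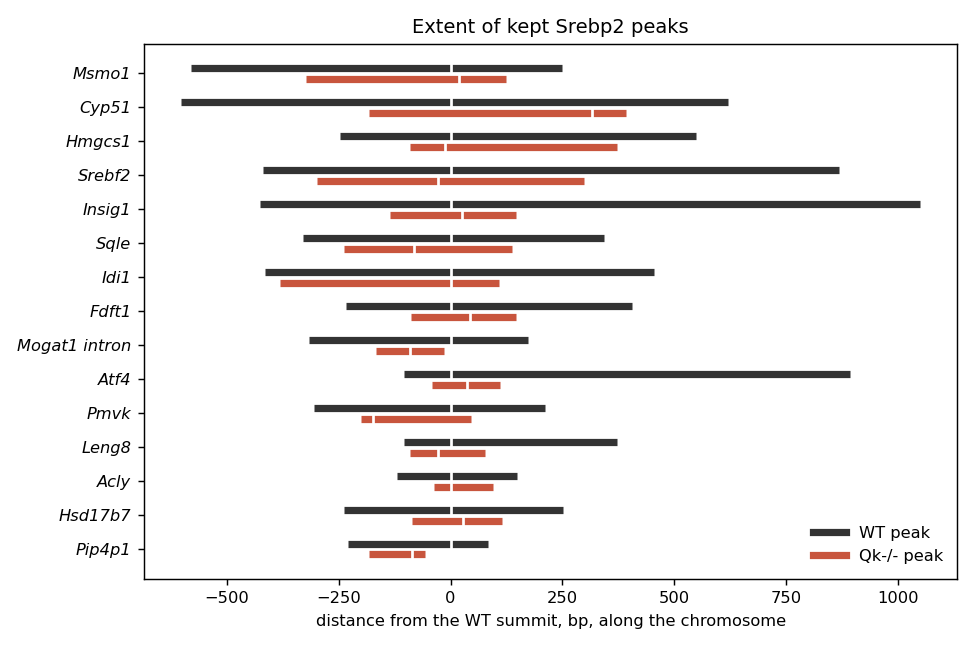
Extent of the same 15 kept peaks in WT (dark) and *Qk*-/- cells (red), with the WT summit at 0 and distance in bp along the chromosome (horizontal axis). White ticks are summits. Every red bar lies within its dark bar, and the red tick of *Cyp51* lies 316 bp from the WT summit.

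The kept promoters included 10 genes of cholesterol biosynthesis. Of 22 genes of this pathway, 17 had a Srebp2 peak within 2 kb of a TSS in WT cells and 10 in *Qk*-/- cells, all 10 among the 17. This compares with 22 of the 82 genes with a Srebp2 promoter peak in WT cells that also had one in *Qk*-/- cells, where neighboring genes can share a peak. The list was drawn up with the target genes of Srebp2 known and is described by its counts. Pol II peaks were present at all 22 promoters in WT and at 17 in *Qk*-/- cells. The share of all annotated genes with a Pol II promoter peak was not determined in either genotype, so these Pol II counts are no result about the pathway.

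In the steps up to farnesyl diphosphate, the peaks of *Hmgcs1*, *Pmvk* and *Idi1* were kept. Those of *Acat2*, *Mvk*, *Mvd* and *Fdps* were lost. *Fdps*, the gene for farnesyl diphosphate synthase, was the strongest lost peak of the pathway, with rank 14, 20.1-fold enrichment and 42 fragments. *Acat2*, whose product joins the first acetyl-CoA units, ranked 20 with 36 fragments, and *Mvd*, the mevalonate diphosphate decarboxylase gene, ranked 31 with 28. *Mvk*, the mevalonate kinase gene, shares a promoter with the cobalamin gene *Mmab* and had 16 fragments at 4.49-fold. A second, weaker WT peak of *Idi1*, 113 bp wide with 16 fragments, was lost next to the kept one.

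From squalene synthesis to cholesterol, the peaks of *Fdft1*, *Sqle*, *Cyp51*, *Msmo1* and *Hsd17b7* were kept and those of *Lss*, *Lbr* and *Sc5d* were lost. *Sqle*, the squalene epoxidase gene, ranked 6 and 7 with 79 and 50 fragments. *Hsd17b7* shares its peak with the noncoding gene *3110045C21Rik* and had 43 and 26. *Sc5d*, the lathosterol oxidase gene, ranked 19 in WT with 33 fragments, *Lss*, the lanosterol synthase gene, ranked 20 with 36, and *Lbr*, which encodes a lamin B receptor with sterol reductase activity, had 20. No Srebp2 promoter peak of either genotype was called at *Ggps1*, *Tm7sf2*, *Nsdhl*, *Ebp* or *Dhcr7*.

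Outside the synthesis pathway, fewer genes of related lists carried Srebp2. Of all 55341 annotated genes, 82 had a Srebp2 promoter peak in WT and 32 in *Qk*-/- cells. In a list of 23 genes for the sensing, uptake and transport of sterols, 4 had a promoter peak in WT cells and 3 of these in *Qk*-/- cells, among them *Srebf2* and *Insig1*. The peak of *Stard4*, which encodes an intracellular sterol carrier, ranked 27 with 31 fragments and was lost. Of 16 genes of fatty acid synthesis and desaturation, *Acly*, *Acss2*, *Fasn*, *Scd2* and *Acsl3* had a WT peak and *Acly* alone had a *Qk*-/- peak, with 34 fragments in WT and 22 in *Qk*-/- cells (48.2% of the WT level, 26.8 to 84.8%). *Fasn*, the fatty acid synthase gene, tied with *Hsd17b7* at rank 29, with 11.5-fold enrichment and 43 fragments in WT for both, and had no *Qk*-/- peak. *Acss2*, which makes acetyl-CoA from acetate, ranked 22 with 29 fragments. Of 18 genes of the unfolded protein and stress response, *Atf4* had a peak in both genotypes and the others in neither. None of 12 myelin, 7 oligodendrocyte precursor, 10 NSC and astrocyte, 8 neuron and 6 microglia markers had a Srebp2 promoter peak in either list, which at the frequency over all genes is no result about the markers.

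The remaining kept peaks lay at genes of other functions or away from promoters. *Leng8* and the noncoding gene *D030047H15Rik* share a kept peak with rank 17 in WT and 20 in *Qk*-/- cells, 37 and 20 fragments, and 40.2% of the WT level (22.1 to 71.2%). The kept peak in the intron of *Mogat1* lies at chr1:78537525-78538015, 25684 bp from the nearest TSS, that of *BC035947*. It had 66 and 31 fragments and 35.0% of the WT level (22.1 to 54.4%), and its 491 bp in WT narrowed to 153 bp. It was the kept peak outside a promoter.

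Lost peaks covered a range of strengths. *Pank3*, which encodes a pantothenate kinase of coenzyme A synthesis, was the strongest by fold, with rank 13, 20.4-fold enrichment, 51 fragments and a width of 1005 bp. It was followed by *Fdps*, by *Csnk1g2*, a casein kinase gene (19.6-fold), and by *Pdp2*, a pyruvate dehydrogenase phosphatase gene (16.4-fold). Further lost peaks down to rank 36 lay at *Dnpep*, an aminopeptidase gene (13.8-fold), *Pcyt2*, a gene of phosphatidylethanolamine synthesis (13.4-fold), *Fam136a* (12.7-fold), a site 1721 bp from *Gm43072* within the fatty acid elongase gene *Elovl6* (11.7-fold), the transcriptional coactivator gene *Sub1* (11.3-fold), *Brpf1* and *Pcmtd1* (10.8-fold each), an intron of *Gramd2* (11.0-fold), a site 5607 bp from *Gm43756* (11.4-fold) and a repeat on chromosome Y (11.0-fold). Weaker lost peaks, at 10.6-fold or less, included promoters of further lipid genes. *Acsl4* and *Acsl3* encode acyl-CoA synthetases, *Hsd17b12* and *Tecr* enzymes of fatty acid elongation, and *Scd2* a desaturase. *Tmem97*, the sigma-2 receptor gene, had 23 fragments. Others lay at *Tmem170b*, *Aco1*, *Nampt*, *AW549877*, *Nab1*, *Echdc1*, *Mfsd14a*, *Slc20a1*, *Herc2*, *Agfg2*, *Spata5* and *Nudt6*, *Canx*, *Mtmr12*, *Arhgap35* and *Pold2*. *Dpysl2*, a gene of axon guidance, had 2 lost peaks, and a lost peak lay in *Acaca*, the acetyl-CoA carboxylase gene, 6459 bp from a TSS. A site 6629 bp from *Elovl5*, another elongase gene, and an untranslated region of the pigmentation gene *a* held lost peaks as well.

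The fragment counts show how far the kept and lost groups were graded by signal. Leaving aside 6 WT peaks in regions of high input, 12 of the 13 WT peaks with over 50 fragments were kept, the exception being *Pank3* with 51. With 31 to 50 fragments 4 of 14 were kept, with 21 to 30 none of 20, and with up to 20 fragments 2 of 24, among them *Pip4p1*. Scaled to the depth of the *Qk*-/- library, the WT counts of the 59 lost peaks would be 17.5 to 125 fragments, with a median of 30.9. All lie above the 17 of the weakest *Qk*-/- peak. The highest of the scaled values belong to the 6 peaks at high input, and the highest of the other lost peaks is 68.5, at *Pank3*. Only peaks that passed the WT call enter this scaling, which favours high counts, and counting error is left out. Scaled values near 17 could therefore fall on either side of it, and the scaling is no test. At the median share of the kept peaks, 43.3% of WT, 17 of the 59 would reach 17 fragments. These 17 include all 6 peaks at high input, where a call needs more fragments. What covered the lost peaks in *Qk*-/- cells was not measured, as only called peaks are listed. In addition, the fragments needed for a call rise with the local input, which the lists do not give at lost peaks in *Qk*-/- cells.

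The 6 WT peaks at high input differed from the rest of the list. Their local background was over 5 times the lowest of the list, and no *Qk*-/- peak had such a background. All 6 were lost, and they held 75 to 93 fragments at 1.93-fold to 6.95-fold enrichment. They included 2 peaks on chromosome Y, a site on chromosome 9 and an unplaced scaffold. The others were the microRNA gene *Gm23935* and a site on chromosome 3. Repeats covered the whole of 3 of them, with no G or C base. Without these 6, 18 of 71 WT peaks (25.4%) were kept.

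Srebp2 peaks of both genotypes lay mainly at promoters. In WT cells 63 of 77 overlapped one (81.8%, 71.4 to 89.7%) and in *Qk*-/- cells 24 of 28 (85.7%, 67.3 to 96.0%). The share was 17 of 18 for kept, 46 of 59 for lost and 6 of 9 for knockout-only peaks. The summit was upstream of the nearest TSS in 16 of 18 kept and 43 of 59 lost peaks. Of the 13 lost peaks outside promoters, 8 had an intergenic summit, 4 an intronic one and 1 a summit in an untranslated region.

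The knockout-only peaks covered a range of strengths. *Ralgapb*, which encodes a subunit of a GTPase-activating complex for Ral proteins, had the strongest, at rank 4 of the *Qk*-/- list with 18.5-fold enrichment, 50 fragments (2.46 per M fragments, 1.83 to 3.24) and a width of 399 bp. The next WT Srebp2 peak was 2891320 bp away. *Patl1*, an mRNA decay factor gene, followed at rank 9 with 12.4-fold enrichment, 33 fragments and 215 bp. *Tti1*, which stabilises kinases of the PIKK family, and *Rprd1b*, a regulator of Pol II, share a peak of rank 15 with 37 fragments. *Kifap3*, a kinesin-associated gene, ranked 19 with 31 fragments, and *Sf3a2*, a splicing factor gene that shares its promoter with *Plekhj1*, ranked 20 with 20. *Zfp653*, a zinc finger gene, ranked 26 with 34 fragments. Others lay on an unplaced scaffold assigned to chromosome 4, at rank 18 with 20 fragments, and 20024 bp from *Dnajb12*, a chaperone gene, at rank 24 with 17. Scaled to WT depth, the counts of all 9 would be 12.7 to 37.2 fragments, and 8 would reach the 13 fragments of the weakest WT peak. These counts come only from peaks that passed the *Qk*-/- call, and counting error is left out, so this scaling is no test either. None of the genes named here is in the lists of cholesterol synthesis, sterol transport, fatty acid synthesis or stress response. Of all 55341 annotated genes, 10 had a promoter peak in *Qk*-/- cells only. At that frequency, an absence from lists of 22, 23, 16 and 18 genes is no result about these peaks.

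CCAAT and GC boxes were most frequent at kept peaks when these were centred on the WT summit. Within 100 bp of the summit, CCAAT was present on either strand in 16 of 18 kept peaks (88.9%, 65.3 to 98.6%), in 37 of 58 lost peaks on assembled chromosomes (63.8%, 50.1 to 76.0%) and in 1 of 8 knockout-only peaks (12.5%, 0.316 to 52.7%). It was found in 26.2% of windows of the same length at 77161 annotated TSS positions and in 15.3% of those at the summits of 16000 WT Pol II peaks at promoters. GGGCGG was present in 15 of 18 kept (83.3%, 58.6 to 96.4%), 38 of 58 lost (65.5%, 51.9 to 77.5%) and 3 of 8 knockout-only peaks (37.5%, 8.52 to 75.5%), against 25.2% at TSSs and 38.3% at Pol II summits. Both elements together occurred in 13 of 18 kept, 27 of 58 lost and 0 of 8 knockout-only windows. For the pair, the share at TSSs and Pol II summits was not determined. The lost windows also include peaks at high input and more peaks outside promoters. The nearest CCAAT box lay at a median of 9.5 bp from the WT summit in kept peaks and 27 bp in lost peaks, where it was present. At *Insig1* and *Idi1* it was centred 1 bp from the summit, and at *Sqle* 4 bp. The intervals above treat peaks as independent, and those of kept and lost peaks overlap for both elements. Within 50 bp of the summit, CCAAT was in 66.7% of kept and 51.7% of lost windows, and GGGCGG in 61.1% and 53.4%. Centred on the summits of the 19 *Qk*-/- peaks that overlapped a WT peak, CCAAT was in 84.2% and GGGCGG in 68.4% of windows. Within 50 bp of these summits the shares were 57.9% and 42.1%. GGGCGG was thus near or below its share at lost peaks there.

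Exact SRE letters were rare. TCACNCCAC was present in 0 of 18 kept, 6 of 58 lost (10.3%, 3.89 to 21.2%) and 0 of 8 knockout-only windows, against 0.653% at TSSs and 0.738% at Pol II summits. The 6 were *Acss2*, with 2 copies, *Fasn*, the site near *Gm43072*, *Echdc1*, *Dpysl2* and an intron of *Stk38l*. Over whole peaks, where kept peaks are the wider, they were in 2 of 18 kept (11.1%, 1.38 to 34.7%) and 7 of 58 lost peaks (12.1%, 4.99 to 23.3%), so the difference near the summit was not seen there. With up to 1 differing base, the letters were in 10 of 18 kept (55.6%, 30.8 to 78.5%), 24 of 58 lost (41.4%, 28.6 to 55.1%) and 4 of 8 knockout-only peaks (50.0%, 15.7 to 84.3%), against 15.7% at TSSs and 15.5% at Pol II summits. At *Srebf2* such a match was centred 3 bp from the WT summit, and in *Qk*-/- cells that of *Cyp51* was centred 10 bp from the summit. The knockout-only peaks with one included *Ralgapb*, *Tti1* and *Kifap3*. These matches are letters in a window and no measure of binding.

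**Figure D4:**
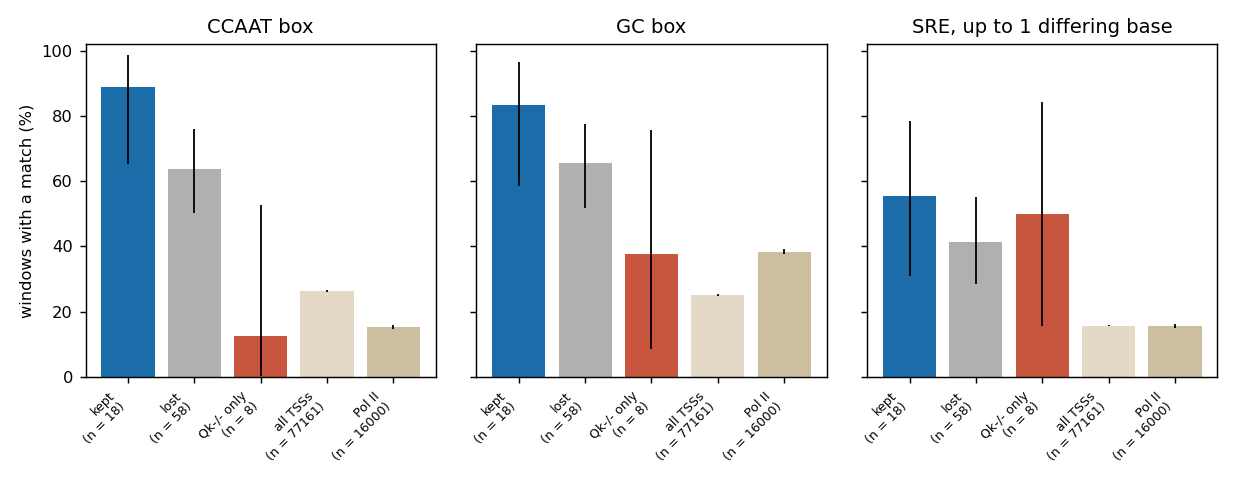
Percentage of windows of 100 bp on either side of the summit or TSS (vertical axis) that hold a CCAAT box, a GC box or the SRE letters with up to 1 differing base, for kept and lost WT peaks, knockout-only peaks, all annotated TSSs and the summits of WT Pol II promoter peaks. Error bars are exact 95% intervals over the windows given as n. CCAAT is in 88.9% of kept, 63.8% of lost and 12.5% of knockout-only windows.

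Pol II was present at most Srebp2 peaks whether or not Srebp2 was kept. In WT cells Pol II peaks overlapped 18 of 18 kept and 50 of 59 lost Srebp2 peaks (84.7%, 73.0 to 92.8%), and in *Qk*-/- cells 15 of 18 (83.3%, 58.6 to 96.4%) and 42 of 59 (71.2%, 57.9 to 82.2%). Of the lost Srebp2 peaks with Pol II in WT cells, 84.0% (70.9 to 92.8%) still had a Pol II peak in *Qk*-/- cells, against 83.3% of the kept ones. Both shares were above the 33.8% of all WT Pol II peaks that were overlapped in *Qk*-/- cells. That share covers weak Pol II peaks and those outside promoters as well. The Pol II peaks at Srebp2 peaks were among the stronger ones, with a median WT rank of 4401.5 of 32280 at kept and 4539 at lost peaks. The share for promoter Pol II peaks of similar rank was not determined, so the excess is no result about Srebp2 sites. The kept peaks without Pol II in *Qk*-/- cells included *Fdft1* and the intron of *Mogat1*. All 9 knockout-only peaks overlapped a Pol II peak in WT cells and 8 of 9 did in *Qk*-/- cells, all but *Kifap3*. At *Pank3*, the strongest lost peak, the Pol II peak ranked 7283 of 32280 in WT and 2521 of 12835 in *Qk*-/- cells. At *Msmo1* the ranks were 3770 and 5413, and at *Atf4* 87 and 35.

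Counted by overlap of at least 1 bp and at any strength, Qki-5 peaks in WT cells were about as frequent at lost as at kept Srebp2 peaks. They overlapped 8 of 18 kept (44.4%, 21.5 to 69.2%), 25 of 59 lost (42.4%, 29.6 to 55.9%) and 6 of 9 knockout-only peaks (66.7%, 29.9 to 92.5%). These intervals overlap widely and leave room for differences in either direction. With at least 5-fold enrichment in every list, a setting that drops many Qki-5 peaks, the shares were 33.3%, 14.8% and 22.2%. Where present, the Qki-5 peaks ranked higher at kept peaks, with a median WT rank of 1347.5 of 7539, against 5229 at lost peaks. Kept WT Srebp2 peaks were also wider (median 657 bp against 189 bp), which makes an overlap easier. The Qki-5 share over all promoters was not determined. The kept peaks with Qki-5 were at *Msmo1*, *Cyp51*, *Hmgcs1*, *Srebf2*, *Insig1*, *Atf4*, *Leng8* and *Pip4p1*, and *Sqle*, *Idi1* and *Fdft1* were kept without one. Among the knockout-only peaks, *Patl1*, *Tti1*, *Kifap3*, *Sf3a2*, *Zfp653* and the scaffold site overlapped a WT Qki-5 peak and *Ralgapb* did not. A Qki-5 peak of *Qk*-/- cells overlapped the WT Srebp2 peak of 1 kept site, *Atf4*, and of 2 of the 59 lost ones, and it overlapped 0 of the 28 *Qk*-/- Srebp2 peaks (0 to 12.3%).

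The state of the cells was described by marker promoters with a Pol II peak. In WT cells these were present at 2 of 12 myelin and mature oligodendrocyte markers, *Cnp* and *Gstp1*, and not at *Mbp* or *Mog*. They were present at 5 of 7 precursor markers, among them *Olig1*, *Olig2* and *Pdgfra*, at 8 of 10 NSC and astrocyte markers, among them *Nes*, *Vim* and *Gfap*, at 3 of 8 neuron markers and at 0 of 6 microglia markers. In *Qk*-/- cells the counts were 2, 4, 8, 1 and 0 in the same order. The share of all annotated genes with a Pol II promoter peak was not determined, so none of these counts has a reference to be read against. The Pol II libraries were made at passage 7, and their peak names begin with mNSC where those of the Srebp2 lists begin with OL, so the markers bear on the Srebp2 cultures of passage 8 only indirectly. A part of cell state in the Srebp2 differences was not tested.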

How the data were processed

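ChIP-seq peak lists for Srebp2, Pol II and Qki-5 in WT and *Qk*-/- oligodendrocytes were used as deposited, with 1 list per antibody and genotype. The study's methods describe paired-end reads aligned to mm10 with Bowtie2, removal of duplicates and peak calling with MACS2 against input at a q-value of 0.05, and the submitters' processing notes name Bowtie 1.2.2 and MACS2 2.1.2, so the aligner behind the lists is not settled. For each peak the authors' lists give a display score, the fold enrichment over input, −log10 p-value and −log10 q-value at the summit, and the summit offset. The deposited display score was not used. The methods state that ChIP-seq signal was normalized by total reads, but the deposited lists hold no such values. Fold was ranked within a list only, apart from a cutoff of at least 5-fold tried as an alternative.

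Peaks were compared by overlap of at least 1 bp. Fragment counts at summits and library depths were recovered by inverting MACS2's fold and p-value, a step chosen after seeing the data. Library totals also rest on a mouse genome size of 1870 Mb and on the narrowest peak of each list as the fragment length. Input depth was recovered alike from the Qki-5 and Pol II lists that share an input. In data simulated with the same formula, known scaling and known background, 189 of 189 summits came back with the right count. Library totals were not simulated. Shares have exact Clopper-Pearson and counts exact Poisson 95% intervals, which cover counting error only. Promoters were 2 kb on either side of a TSS in GENCODE M21 (77238 TSSs of 55341 genes), and motif letters were searched within 100 bp of summits on either strand. Sequences are from the RefSeq copy of GRCm38, the build of the lists. Python 3.11.15, pandas 2.3.3, numpy 2.4.6, scipy 1.17.1, pysam 0.24.0, samtools 1.23.1 and matplotlib 3.10.9 were used.

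Peaks were named by the genes whose promoters they overlap or else the nearest TSS. By rule these were every kept and knockout-only peak, lost peaks at genes of the lists and the 20 lost peaks with the highest fold (and a tie), with the others given by gene name. Members and gene lists were chosen with earlier results of these data known. Results at some genes, including kept, lost and knockout-only peaks, are not reported here, although the peaks are counted. The alternatives tried were other overlap rules, stricter thresholds, other promoter widths, other motif windows and another ranking.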

Additional observations from a re-analysis of the deposited data

How the results depend on the processing

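Of 75 alternative values, 61 stayed near the main value and 14 did not. Counts had to stay within 1.5 times the main count, and shares within their counting interval. Median ranks, widths and summit shifts had to stay within the standard deviation across peaks, a wide margin. The kept count of 18 became 5 with a reciprocal overlap of at least 50%, where the narrower *Qk*-/- peaks cover too little of the WT peaks, and 16 with summits within 100 bp or 19 with gaps up to 500 bp. It was 18 with q under 0.01, with at least 5-fold enrichment and without peaks at high input, the last chosen after seeing the data. With the Srebp2 summit required inside the other peak, kept peaks with Pol II in *Qk*-/- cells were 55.6% and lost peaks with WT Qki-5 28.8%. With at least 5-fold enrichment, WT Qki-5 was at 14.8% of lost and 22.2% of knockout-only peaks. With up to 1 differing base, the SRE was in 55.6% of kept, 41.4% of lost and 50.0% of knockout-only windows. GGGCGG was then in 100%, 93.1% and 100%, and CCAAT in 98.3% of lost and 100% of knockout-only windows. With letters this loose, the shares of the GC and CCAAT boxes differed little between the groups. Over whole peaks, GGGCGG was in 100% of kept peaks, and the exact SRE in 11.1% of kept and 12.1% of lost peaks. Cholesterol promoters with a peak were 16 in WT and 8 in *Qk*-/- cells when a peak was given to its nearest TSS only. The summed *Qk*-/- signal was 41.3% of WT with input subtracted and 41.6% over the 12 strongest WT peaks, both chosen after seeing the data. No paired analysis was possible because each genotype had 1 Srebp2 library, and for the same reason no library could be left out.

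Depth limits the weakest peaks: those with 13 to 17 fragments have intervals about as wide as their value, and signal under the calling threshold is not listed. The recovered depths hold for fragments after the authors' filters.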
